A study of Mus musculus with 6 samples.

Results

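Oligodendrocyte lineage genes were read in RNA sequencing of mouse neurospheres, the free-floating spheres that neural stem cells and their progeny form in culture. The list held 32 genes, chosen by symbol: 8 of oligodendrocyte precursors, 7 of cells committed to differentiation, and 17 of myelin and its formation. Of these, 31 were in the table of 14327 genes. Opalin, a late myelin glycoprotein, is not analysed here. Genes averaging 1 FPKM or more across the 6 libraries were tested, and 28 members qualified: all 8 precursor genes, 5 of 7 committed genes and 15 of the myelin genes. FPKM is fragments per kilobase of transcript, scaled to the mapped fragments of each library, so levels can be compared between genes per length. Enpp6, Tmem163 and Ermn were below the filter and are described by their values.

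The 6 libraries were 3 of wild-type (WT) mice and 3 labelled conditional knockout (cKO) of Slc22a17, the gene of a membrane receptor that takes up lipocalin 2, an iron carrier. All came from primary neural stem cells of the hippocampus at postnatal day 0, grown with B27, N2, EGF and bFGF. The sources used here do not give the strain, the Cre driver, the sex of the mice or any pooling of animals. Nothing in the labels ties each library to its own culture or mouse, so the spread that enters each p-value is that of these libraries and may be technical.

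Oligodendrocytes make the myelin sheaths of the central nervous system. They arise from precursors that carry the PDGF receptor alpha and the NG2 proteoglycan. The lineage depends on the transcription factors Olig2, Sox10 and Nkx2-2. Precursors that leave the cell cycle pass through a short stage marked by Gpr17, Bcas1 and Enpp6, switch on the regulator Myrf, and then make the proteins and lipids of myelin. Neural stem cells grown with growth factors can enter this lineage, and Olig1 and Olig2 are also expressed in progenitors that have not chosen it.

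Facts of the whole series touch every comparison. Slc22a17 itself was at 169 to 204 FPKM (WT) and 164 to 187 FPKM (cKO-labelled), so its transcript was not lost and directions are those between libraries as labelled. The Y-linked genes Ddx3y and Eif2s3y together had 0.10, 0.07 and 25.9 FPKM in replicates 1 to 3 of WT, and 43.8 to 51.2 FPKM in the cKO-labelled libraries. WT replicate 3 was therefore the WT library nearest to the cKO-labelled ones in this respect, and for some members values against it alone are also given. Every cKO-labelled library had more of these transcripts than every WT library, so this level and the label are largely confounded. Fits with the Y-linked level as a covariate rest mainly on WT replicate 3 and do not separate the 2. Markers of stem cells were abundant in all 6 libraries, with Sox2 at 123 to 148 FPKM and Nes at 80.7 to 118 FPKM. Dcx, the marker of young neurons, was at 0.08 to 0.47 FPKM. The 13 neuron markers in the table summed to 82.6 to 88.7 FPKM (WT) and 82 to 97.1 FPKM (cKO-labelled), most of it Map2. Of the 4 tested neuron markers 2 were higher and 2 lower. Tubb3 was at 3.46 to 4.53 FPKM (WT) and 4.95 to 5.40 FPKM (cKO-labelled), without overlap (adjusted p = 0.279 by limma). Among all 11596 tested genes, 3 passed limma's test at an adjusted p of 0.05, which is 0.0259%.

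No member passed that test: 0 of 28 were higher, against 0.00862% of all tested genes, and 0 of 28 were lower, against 0.0172%. Adjusted p-values ran from 0.235 for Mobp to 0.982 for Ugt8a. At an unadjusted p under 0.05 there were 8 members with lower and 0 with higher values in the cKO-labelled libraries, against 7.82% and 4.44% of all tested genes, and all 8 were myelin genes. The stages are described by their medians, which were not tested against each other. Precursor genes had a median log2 fold change (cKO minus WT, on the log2(FPKM + 1) scale) of 0.07, committed genes of 0.04 and myelin genes of -0.21, where all tested genes had -0.02. The sign of the first 2 medians was not stable: leaving out WT replicate 1 gave -0.0088 for committed genes, leaving out WT replicate 3 gave -0.02, and leaving out cKO replicate 1 gave -0.04. For precursor genes it was 0.0023 without WT replicate 1, 0.01 without cKO replicate 1 and -0.02 with the Y-linked level as a covariate. In bulk RNA, fewer cells of a type and less RNA per cell cannot be told apart.

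**Figure D1:**
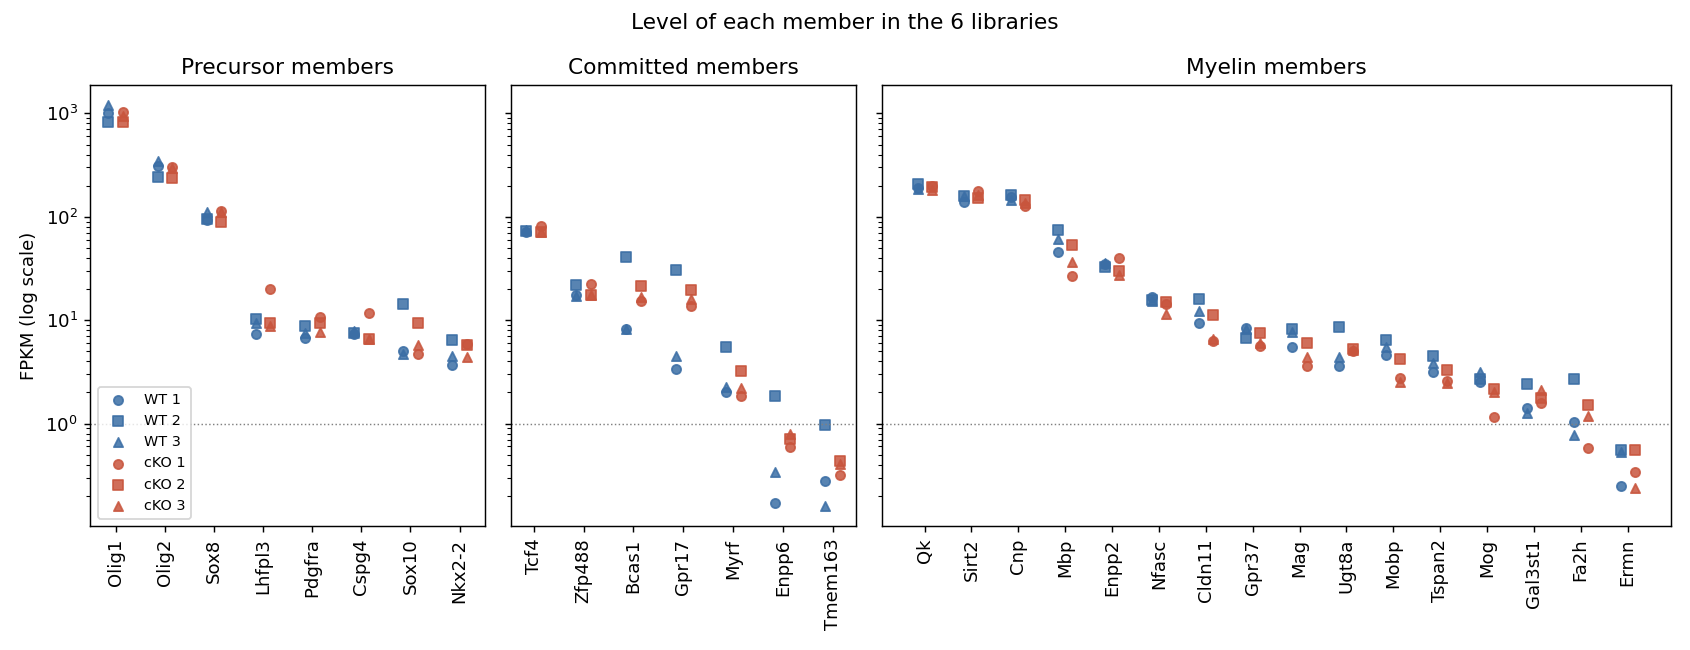
FPKM of the 31 members in each library on a log axis, ordered by mean level within the precursor, committed and myelin stages; blue points are WT, red points cKO-labelled, the marker shape is the replicate number, and the dotted line is 1 FPKM. Levels span from 1207 FPKM for Olig1 to 0.16 FPKM for Tmem163, and in the committed panel WT replicate 2 stands above the other libraries for 5 of the 7 genes.

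The precursor factors Olig1 and Olig2 were the most abundant members. Olig1, a basic helix-loop-helix factor, had 1007, 820.2 and 1207 FPKM in replicates 1 to 3 of WT, and 1038, 821 and 941 FPKM in those of cKO. It ranked 31st of 14327 genes by its mean. Its partner Olig2, which specifies the lineage, was at 307, 240.4 and 348 FPKM in the WT group, against 304, 239 and 297 FPKM in the cKO-labelled group. Both genes were lowest in the replicates numbered 2, with no separation of the groups. The log2 fold changes were -0.10 for Olig1 (95% interval -0.45 to 0.24, adjusted p = 0.831) and -0.08 for Olig2 (95% interval -0.41 to 0.25, adjusted p = 0.868). Against WT replicate 3 alone they were -0.38 and -0.32, and with the Y-linked level as a covariate -0.79 and -0.72, with adjusted p = 0.921 for both in the latter fit. Sox8, an SRY-box factor that acts with Sox10, was at 92.8, 95.1 and 112 FPKM in the WT libraries and 115, 89.5 and 111 FPKM in the cKO-labelled ones (adjusted p = 0.852). For all 3 factors the groups overlapped, and the intervals with all libraries span 0.

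Sox10 and Nkx2-2, which drive precursors towards differentiation, were far less abundant than the Olig factors. Sox10 was at 5.04, 14.4 and 4.76 FPKM (WT) and 4.70, 9.33 and 5.74 FPKM (cKO-labelled). WT replicate 2 was the highest of the 6, at 2.93 times the mean of the other two WT libraries, and cKO replicate 1, the lowest, was just below the WT range. The log2 fold change was -0.14 (95% interval -0.99 to 0.70, adjusted p = 0.917) with all libraries but 0.32 without WT replicate 2 and 0.04 without cKO replicate 1, so that its sign rested on single libraries. Nkx2-2 was at 3.72, 6.46 and 4.47 FPKM in the WT group, against 5.92, 5.77 and 4.42 FPKM in the cKO-labelled group (log2 fold change 0.13, adjusted p = 0.806). Here too WT replicate 2 was the highest library.

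The surface proteins of precursors were highest in cKO replicate 1. Pdgfra, the receptor for the growth factor PDGF-AA, was at 6.67, 8.85 and 7.59 FPKM in the WT libraries and 10.8, 9.32 and 7.74 FPKM in the cKO-labelled ones (log2 fold change 0.24, SE 0.13, adjusted p = 0.490). Both cKO replicates 1 and 2 were above every WT library, and without cKO replicate 1 the log2 fold change was 0.13. Lhfpl3, a tetraspan membrane protein used as a precursor marker, was at 7.39, 10.2 and 9.29 FPKM (WT) and 20.1, 9.40 and 8.70 FPKM (cKO-labelled). Its log2 fold change of 0.38 (SE 0.27, adjusted p = 0.616) was 0.02 without cKO replicate 1. Cspg4, the NG2 proteoglycan, was at 7.31 to 7.89 FPKM in WT and reached 11.7 FPKM in cKO replicate 1 against 6.64 and 6.53 FPKM in cKO replicates 2 and 3. For Cspg4 the log2 fold change was 0.07 with that library (adjusted p = 0.919) and -0.18 without it. Pdgfra and Cspg4 are also made by fibroblasts and pericytes. Of 18 markers of mural cells, fibroblasts and endothelium 10 were in the table and 8 of these had a mean under 1 FPKM. Rgs5 was at 0.06 to 0.21 FPKM and Col1a1 at 0.08 to 0.11 FPKM, and the summed level of the 10 was 19.5 to 28.9 FPKM in WT and 17.7 to 24.0 FPKM in the cKO-labelled libraries, most of it Notch3. Pdgfrb was at 3.16 FPKM in cKO replicate 1, the lowest of the 6 libraries.

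Committed genes had a median ratio of 2.69 between the highest and the lowest WT library, and of 1.40 between the cKO-labelled ones (5 tested genes). Gpr17 lies at chr18:31942999-31949890 and Bcas1 at chr2:170343973-170427911 (GRCm38.p6). Gpr17, an orphan receptor that marks precursors as they begin to differentiate, had 3.37, 30.3 and 4.53 FPKM in replicates 1 to 3 of WT, and 13.8, 19.5 and 16.1 FPKM in those of cKO. Its highest WT library was 8.99 times its lowest, while the cKO-labelled libraries differed by 1.41 times. Every cKO-labelled library lay between WT replicate 2 and the other two WT libraries. WT averaged 12.7 ± 15.2 FPKM and the cKO-labelled libraries 16.5 ± 2.87 FPKM (SD, n = 3 each). The cKO-labelled mean was thus 129.5% of the WT mean, which WT replicate 2 raised. The mean of log2(FPKM + 1) differed by more, with a log2 fold change of 0.93 (95% interval -0.51 to 2.36, adjusted p = 0.599 by limma). Without WT replicate 2 the log2 fold change was 1.82 (SE 0.15, 95% interval 1.47 to 2.17) and passed limma's test (adjusted p = 0.0385), so a single library decided the call. Over all the alternatives tried the adjusted p of Gpr17 ran from 0.0385 to 0.921. Against WT replicate 3 alone the log2 fold change was 1.65.

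Bcas1, a marker of newly forming oligodendrocytes, had the same order of libraries. It was at 8.24, 40.8 and 8.26 FPKM in the WT group, against 15.3, 21.4 and 16.8 FPKM in the cKO-labelled group. The log2 fold change was 0.29 (95% interval -0.88 to 1.46, adjusted p = 0.868). The means in FPKM went the other way, at 19.1 (WT) and 17.8 (cKO-labelled), 93.5% of the WT mean. Leaving out WT replicate 2 gave 1.01, while leaving out WT replicate 1 gave -0.08 and leaving out WT replicate 3 gave -0.07, so its sign depended on the WT library. Myrf, the transcription factor that turns on myelin genes, was at 2.03, 5.46 and 2.25 FPKM in the WT libraries and 1.86, 3.23 and 2.19 FPKM in the cKO-labelled ones (log2 fold change -0.24, adjusted p = 0.788), and its log2 fold change was 0.11 without WT replicate 2. For Myrf the cKO-labelled values lay near WT replicates 1 and 3, unlike those of Gpr17 and Bcas1. Below the filter, Enpp6, a choline phosphodiesterase of new oligodendrocytes, was at 0.17, 1.86 and 0.34 FPKM (WT) and 0.59, 0.71 and 0.80 FPKM (cKO-labelled). Tmem163, a zinc-binding membrane protein, was at 0.28, 0.97 and 0.16 FPKM in the WT group, against 0.32 to 0.43 FPKM in the cKO-labelled group. Both were again highest in WT replicate 2, with the cKO-labelled libraries between it and the other two.

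The remaining committed genes did not share this spread. Tcf4, a widely expressed basic helix-loop-helix partner of Olig2, was at 71.9, 73.0 and 74.1 FPKM in the WT libraries and 81.5, 70.7 and 70.9 FPKM in the cKO-labelled ones (log2 fold change 0.02, 95% interval -0.13 to 0.18, adjusted p = 0.922). Zfp488, a zinc finger repressor of transcription expressed in the lineage, was at 17.3, 21.7 and 17.1 FPKM (WT) and 22.5, 17.7 and 17.6 FPKM (cKO-labelled) (log2 fold change 0.04, adjusted p = 0.931). Their WT libraries differed by 1.03 and 1.27 times.

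In all, WT replicate 2 exceeded 2 times the mean of the other WT libraries for 6 of the 28 tested members (Sox10, Gpr17, Bcas1, Myrf, Ugt8a and Fa2h), against 0.552% of all tested genes. It was the highest WT library for 19 of 28 members and for 41.1% of all tested genes. A ratio over 2 between the highest and the lowest WT library was found for 6 members and for 1.75% of tested genes, and between cKO-labelled libraries for 2 members (Lhfpl3 and Fa2h) and for 1.66% of tested genes. WT replicate 2 also had the lowest summed level of the 18 astrocyte markers, 10721 FPKM against 12936 to 13923 FPKM in the other 5 libraries, and the highest sum of the 14 proliferation markers, 529 FPKM against 337 to 495 FPKM. The part of these differences in the committed genes was not tested. Gpr17 lies within the annotated span of Lims2 on chromosome 18, and the sources used here do not say whether counting used the strand, so fragments of the overlapping genes may not be told apart. Lims2 was at 1.52, 5.00 and 1.92 FPKM in the WT group, against 3.07, 4.42 and 3.63 FPKM in the cKO-labelled group, the same order of libraries at a lower level.

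**Figure D2:**
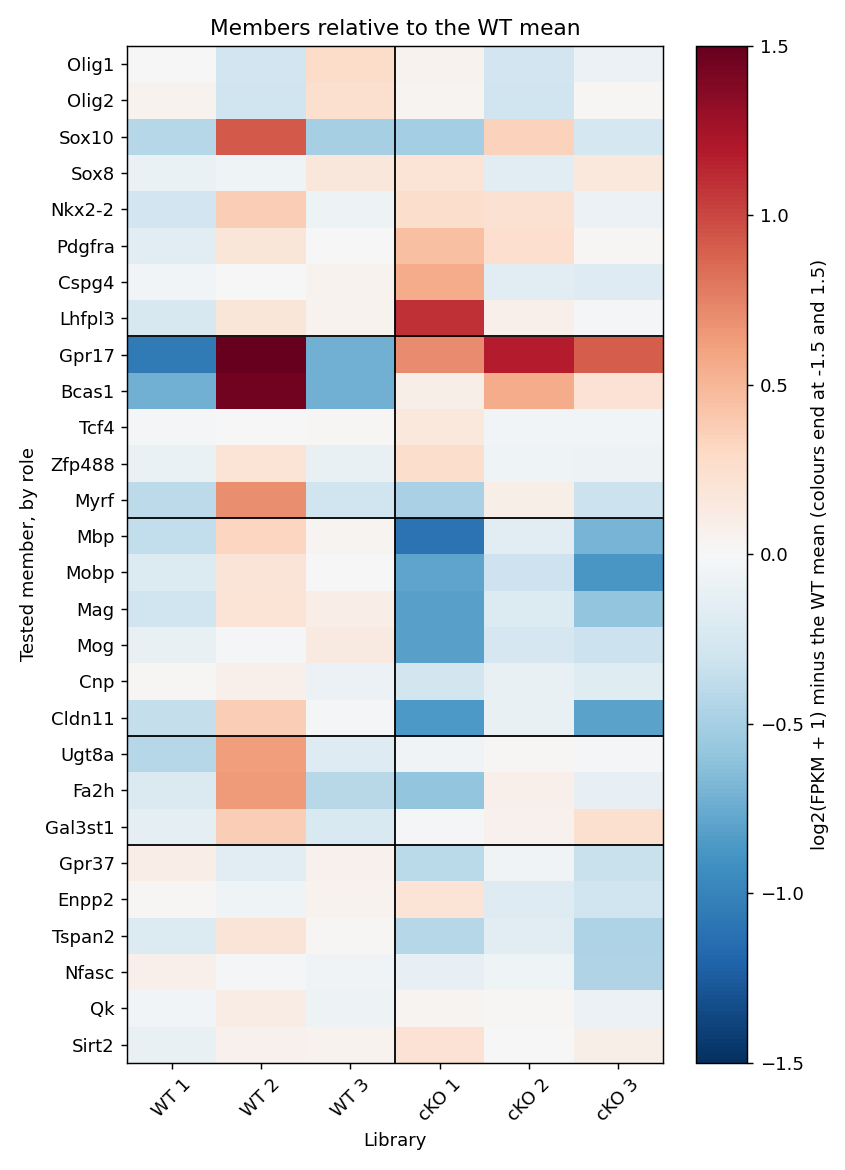
Difference of log2(FPKM + 1) from the WT mean for the 28 tested members (rows, split by role into precursor, committed, structural myelin, myelin lipid and other myelin genes) in the 6 libraries (columns). Red is above and blue below the WT mean; Gpr17 and Bcas1 are darkest red in WT replicate 2, and the structural myelin genes are blue in all 3 cKO-labelled libraries, least in cKO replicate 2.

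Structural proteins of myelin had lower values in the cKO-labelled libraries, without passing the test. The group, formed by role after the values had been seen, held Mbp (chr18:82475091-82585637), Mobp (chr9:120149742-120181488), Mag (chr7:30899175-30914922), Mog (chr17:37010740-37023398), Cnp (chr11:100574909-100591875) and Cldn11 (chr3:31149920-31164326) among tested genes, in GRCm38.p6. All 6 had negative log2 fold changes, with a median of -0.56, where 55.5% of all tested genes were negative. Of the 6, 3 had no overlap between the groups (Mobp, Mog and Cnp). With Nfasc, 4 of the 28 members had no overlap with the cKO-labelled libraries lower and 0 with them higher, against 10.2% and 7.07% of all tested genes.

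Mbp, the protein that compacts the inner faces of the myelin membrane, had 46.0, 75.0 and 61.3 FPKM in replicates 1 to 3 of WT, and 27.0, 53.0 and 36.4 FPKM in those of cKO. Only cKO replicate 2 lay within the WT range. The means were 60.7 ± 14.5 and 38.8 ± 13.1 FPKM (SD, n = 3 each), 63.9% of the WT mean (log2 fold change -0.66, 95% interval -1.20 to -0.11, adjusted p = 0.326 by limma). The Mbp gene also gives golli transcripts, which are made outside myelinating cells, and a value per gene does not separate them. Mobp, a small basic protein of compact myelin, was at 4.61, 6.42 and 5.53 FPKM in the WT libraries and 2.73, 4.22 and 2.55 FPKM in the cKO-labelled ones. All cKO-labelled values were below all WT values, and averaged 57.4% of them (SE 0.16 about a log2 fold change of -0.66, adjusted p = 0.235).

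Mag, an adhesion protein of the inner myelin layer that faces the axon, was at 5.55, 8.28 and 7.67 FPKM (WT) and 3.60, 5.98 and 4.37 FPKM (cKO-labelled) (log2 fold change -0.54, SE 0.17, adjusted p = 0.281). The groups overlapped, since cKO replicate 2 was above WT replicate 1. Mog, a protein of the outer myelin surface, was at 2.50, 2.72 and 3.17 FPKM in the WT group, against 1.16, 2.18 and 2.03 FPKM in the cKO-labelled group (log2 fold change -0.46, SE 0.16, adjusted p = 0.297). Without cKO replicate 1 the log2 fold change of Mog was -0.29. Cldn11, the claudin of myelin tight junctions, was at 9.40, 16.1 and 12.2 FPKM in the WT libraries and 6.29, 11.3 and 6.63 FPKM in the cKO-labelled ones (log2 fold change -0.59, SE 0.23, adjusted p = 0.347). As for Mbp, cKO replicate 2 lay within the WT range.

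Cnp, a nucleotide phosphodiesterase of non-compact myelin that precursors already express, was much the most abundant of the group. It was at 157, 163 and 146 FPKM (WT) and 128, 144 and 136 FPKM (cKO-labelled), without overlap (log2 fold change -0.19, SE 0.07, adjusted p = 0.324). Its span overlaps Dnajc7, whose means were 56.1 FPKM (WT) and 55.2 FPKM (cKO-labelled). Ermn, a cytoskeletal protein of late oligodendrocytes, was at 0.24 to 0.56 FPKM over the 6 libraries, with no order by group.

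The summed level of the 7 structural genes in the table, Ermn included, was 225, 272 and 236 FPKM in the WT libraries and 169, 221 and 188 FPKM in the cKO-labelled ones. Of the 6 tested genes, 5 were lowest of all libraries in cKO replicate 1 (Mbp, Mag, Mog, Cnp and Cldn11). cKO replicate 1 was the lowest library for 9 of the 28 members and for 20.6% of all tested genes. It was also the lowest for 7 of 7 tested microglia markers, and the 13 microglia markers in the table summed to 29.4 FPKM there against 39.6 to 51.8 FPKM in the other 5 libraries. Their part in the myelin values was not tested. The median log2 fold change of the 6 tested genes stayed negative when any single library was left out, from -0.77 without cKO replicate 2 to -0.42 without cKO replicate 1, and all 6 genes were lower each time. Against WT replicate 3 alone it was -0.62, again with all 6 lower. With the Y-linked level as a covariate it was -0.47, with 5 of 6 lower and Cnp at 0.04. The group was formed after its values were seen and these fits reuse the same libraries, so they are not independent tests of direction. The proliferation markers were also lower in the cKO-labelled libraries, with a median log2 fold change of -0.42 and 14 of 14 lower, and the astrocyte markers had a median of 0.11 with 12 of 18 higher; none of these markers passed the test. The summed proliferation markers were at 449.9 to 529 FPKM (WT) and 337 to 454 FPKM (cKO-labelled), and the summed astrocyte markers at 10721 to 12938 FPKM (WT) and 13564 to 13923 FPKM (cKO-labelled). The part of these markers in the myelin values was likewise not tested. Mag, Mbp and Cnp are also made by Schwann cells. Of 11 Schwann cell markers 7 were in the table, summing to 110.1 to 117 FPKM (WT) and 92.7 to 114 FPKM (cKO-labelled), led by the widely expressed Pmp22. The defining genes Egr2 and Prx were at 0.40 to 0.99 FPKM and 0.22 to 0.61 FPKM. Cdh19, also on that list, was at 10.8 to 13.8 FPKM (WT) and 12.6 to 15.3 FPKM (cKO-labelled). Of the 3 tested Schwann cell markers 1 was higher and 2 were lower.

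**Figure D3:**
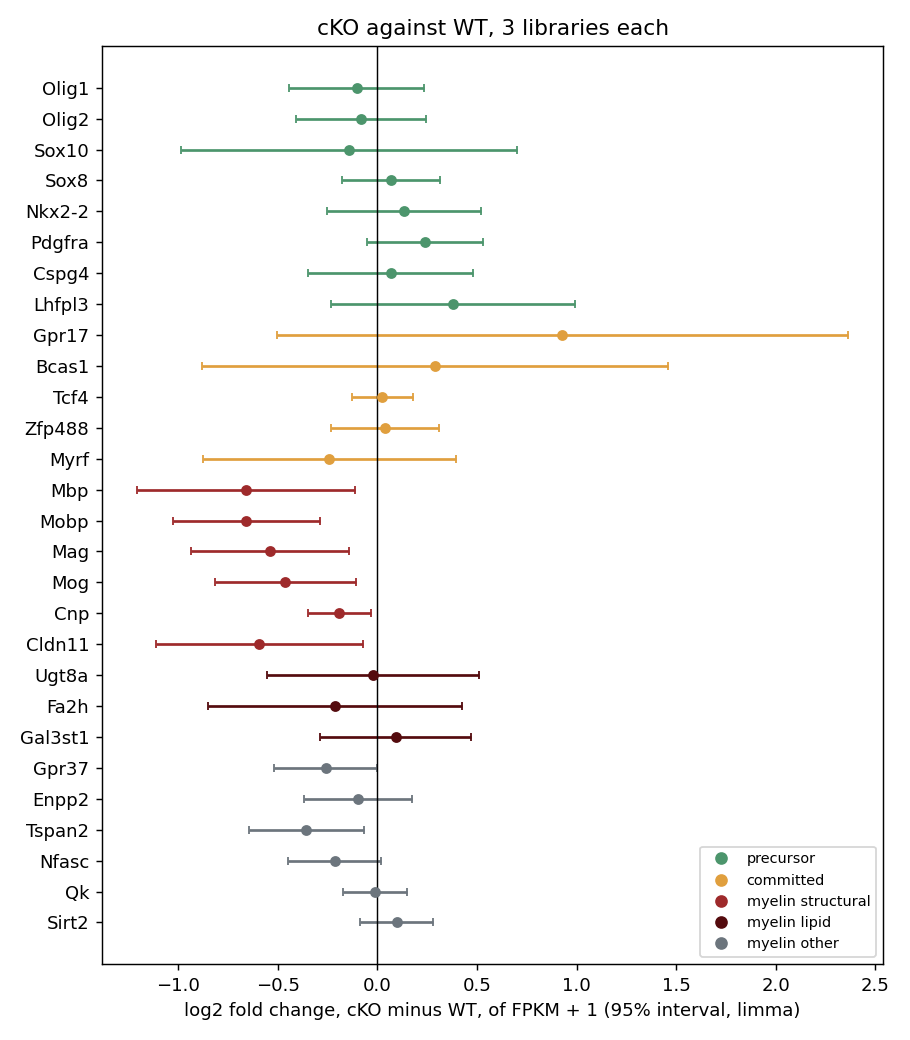
Log2 fold change (cKO minus WT, log2(FPKM + 1), 3 libraries each) of the 28 tested members with limma's 95% intervals, coloured by role. The intervals of Mbp, Mobp, Mag, Mog, Cnp and Cldn11, and of Tspan2 and Gpr37 among the other myelin genes, lie below 0 before adjustment for multiple testing. That of Gpr17 is the widest, from -0.51 to 2.36.

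Promoter sequence is shown for structural genes because their fold changes had the same sign. The 250 bases before the RefSeq start site (GRCm38.p6) are given 5′ to 3′ on the gene's strand for the 3 genes without overlap and for Cldn11. The Cnp window precedes a start site inside the span given above, so its last bases lie within that span. Capitals mark ACAAAG, the core of SOX factor sites, or its reverse complement CTTTGT, and CTGGCAC or CTGGTAC, forms of the site described for Myrf, or their reverse complements GTGCCAG and GTACCAG.
Mobp, chr9:120149492-120149741, plus strand: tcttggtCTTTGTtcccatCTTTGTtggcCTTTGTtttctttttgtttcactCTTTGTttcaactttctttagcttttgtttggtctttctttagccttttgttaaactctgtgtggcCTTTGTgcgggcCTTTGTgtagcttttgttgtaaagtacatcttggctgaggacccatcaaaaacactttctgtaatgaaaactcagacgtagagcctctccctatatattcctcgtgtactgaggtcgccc
Mog, chr17:37023399-37023648, minus strand: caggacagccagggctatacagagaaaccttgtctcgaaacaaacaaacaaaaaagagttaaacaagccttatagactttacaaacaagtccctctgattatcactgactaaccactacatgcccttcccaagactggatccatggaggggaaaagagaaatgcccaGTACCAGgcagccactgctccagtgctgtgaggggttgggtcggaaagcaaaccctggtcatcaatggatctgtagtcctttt
Cnp, chr11:100574689-100574938, plus strand: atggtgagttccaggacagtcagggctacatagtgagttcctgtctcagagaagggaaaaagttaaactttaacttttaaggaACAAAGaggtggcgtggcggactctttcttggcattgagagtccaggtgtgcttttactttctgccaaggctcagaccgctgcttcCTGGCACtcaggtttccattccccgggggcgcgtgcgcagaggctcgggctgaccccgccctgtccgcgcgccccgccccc
Cldn11, chr3:31149670-31149919, plus strand: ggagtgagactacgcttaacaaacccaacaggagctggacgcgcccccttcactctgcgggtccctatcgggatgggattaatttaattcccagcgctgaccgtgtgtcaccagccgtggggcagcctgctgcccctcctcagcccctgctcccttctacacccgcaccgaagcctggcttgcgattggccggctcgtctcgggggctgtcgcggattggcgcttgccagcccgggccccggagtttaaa
The Mobp window held 6 copies of CTTTGT within a run of related T-rich repeats. Mog held 1 form of the Myrf site and no SOX core, Cnp held 1 of each, and Cldn11 held none of these letters. A window was listed for 22 of the 31 members, some with several start sites. The SOX core was found for 4 of them (Mobp, Cnp, Mag and Tspan2). By window this was 5 of 28 member windows, against 16.5% of all 32851 windows of this length. CTGGCAC was found for Cnp and Mag, in 3 of the 28 member windows and in 4.19% of all windows. CTGGTAC was found for Mog, in 1 of the 28 and in 1.83% of all windows. A match describes the letters only.

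For the enzymes of myelin lipids the groups overlapped, with WT replicate 2 on top. Ugt8a, which makes galactosylceramide, was at 3.61, 8.61 and 4.43 FPKM in the WT group, against 4.98, 5.28 and 5.13 FPKM in the cKO-labelled group (log2 fold change -0.02, 95% interval -0.55 to 0.51, adjusted p = 0.982). Fa2h, which adds the 2-hydroxyl group to myelin fatty acids, was at 0.58 to 2.71 FPKM over all libraries (adjusted p = 0.813). Gal3st1, which sulfates galactosylceramide to sulfatide, was at 1.26 to 2.43 FPKM (adjusted p = 0.870). WT replicate 2 was the highest library for all 3, as it was for Gpr17 and Bcas1. Without that library the log2 fold changes were 0.29, 0.11 and 0.28, against -0.02, -0.21 and 0.09 with it.

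The other myelin-stage genes are less tied to myelin and most were abundant. Qk, the RNA-binding protein quaking, which controls splicing and stability of myelin transcripts, was at 188, 209.8 and 184 FPKM in the WT libraries and 199, 195 and 183 FPKM in the cKO-labelled ones (log2 fold change -0.01, 95% interval -0.17 to 0.15, adjusted p = 0.968). Sirt2, a deacetylase found in myelin, was at 140.4, 159 and 159 FPKM (WT) and 177, 151 and 162 FPKM (cKO-labelled) (log2 fold change 0.10, adjusted p = 0.680). Enpp2, the secreted enzyme autotaxin, was at 34.6, 32.7 and 35.6 FPKM in the WT group, against 39.6, 29.9 and 27.6 FPKM in the cKO-labelled group (adjusted p = 0.800). None of these 3 separated the groups.

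Nfasc, the adhesion protein neurofascin of axon and glial contacts, was at 16.8, 15.7 and 15.3 FPKM in the WT libraries and 14.5, 15.1 and 11.4 FPKM in the cKO-labelled ones. The groups did not overlap, by a margin of 15.3 against 15.1 FPKM (log2 fold change -0.21, SE 0.10, adjusted p = 0.443), and without cKO replicate 3 the log2 fold change was -0.10. Tspan2, a tetraspanin of new oligodendrocytes, was at 3.17, 4.48 and 3.86 FPKM (WT) and 2.56, 3.28 and 2.48 FPKM (cKO-labelled) (log2 fold change -0.36, SE 0.13, adjusted p = 0.318). Gpr37, a receptor that restrains myelination, was at 6.77 to 8.38 FPKM in the WT group, against 5.63 to 7.45 FPKM in the cKO-labelled group (log2 fold change -0.26, adjusted p = 0.406).

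**Figure D4:**
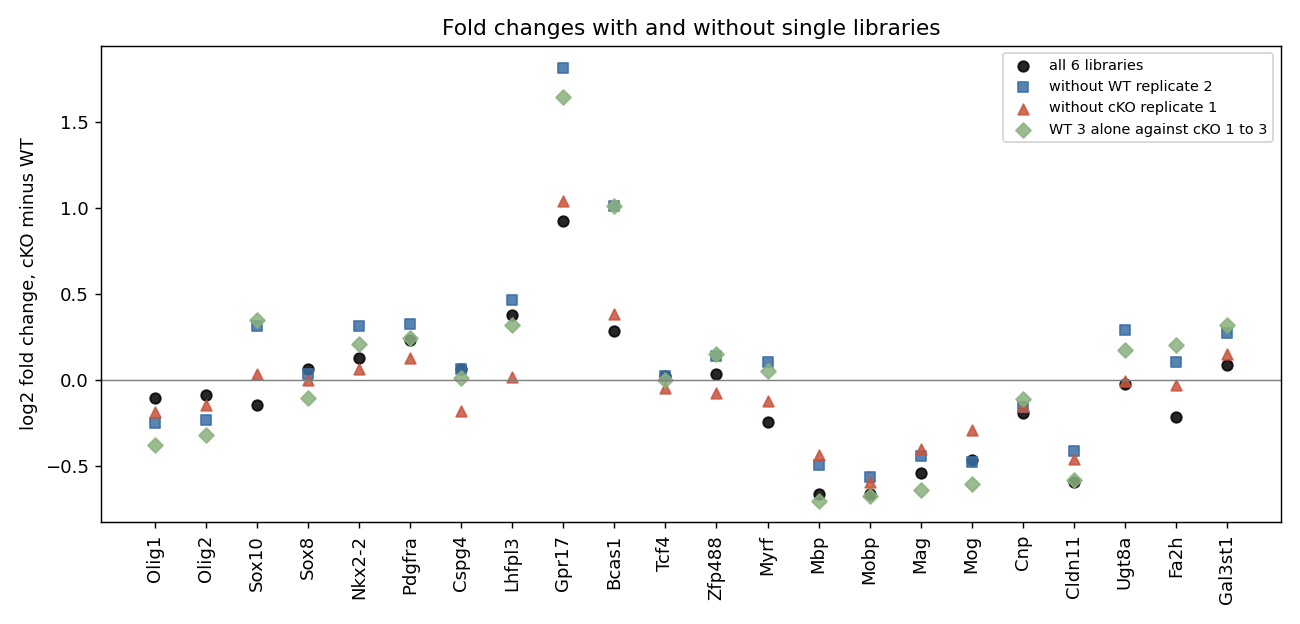
Log2 fold change (cKO minus WT) of the precursor, committed, structural and lipid members with all 6 libraries (black circles), without WT replicate 2 (blue squares), without cKO replicate 1 (red triangles) and for WT replicate 3 alone against the 3 cKO-labelled libraries (green diamonds). Gpr17 moved from 0.93 to 1.82 and Bcas1 from 0.29 to 1.01 without WT replicate 2, while the 6 structural genes were below 0 in all 4 settings.

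Other genes of the lineage, listed by general knowledge, gave no call. Of 26 further precursor genes 22 were tested, 0 passed in either direction, 15 had higher and 7 lower fitted values, and the median log2 fold change was 0.08. Without cKO replicate 1 the median was -0.02 with 11 of 21 lower, and without WT replicate 2 it was 0.01 with 10 of 21 lower. Those of lowest p were Ncan, the proteoglycan neurocan, at 187, 200.4 and 191 FPKM in the WT libraries and 181, 138 and 156 FPKM in the cKO-labelled ones (adjusted p = 0.289), C1ql1 at means of 10.2 and 7.76 FPKM, and Cacng4 at means of 67.0 and 83.4 FPKM. Of 52 entries for oligodendrocyte and myelin genes 37 were tested, 0 passed, 10 were higher and 27 lower, with a median of -0.05. Of all tested genes, 55.5% were lower. Without WT replicate 2 the list had 22 of 36 lower, and 25 to 27 were lower when any other single library was left out. Nkain1 averaged 26.5 and 19.2 FPKM, Anln, which also serves cytokinesis, 8.90 and 6.54 FPKM, and Nkx6-2 1.37 and 0.71 FPKM (adjusted p = 0.235, 0.269 and 0.267). Nkx6-2, a transcription factor of late oligodendrocytes, passed the filter only through its WT level. Genes of the list also lay in the other direction, of which 2 are named after their values were seen. Sept4, a septin, averaged 129 and 203 FPKM, with overlap (log2 fold change 0.68, adjusted p = 0.297), and Gpm6b, a membrane glycoprotein, averaged 447 and 496 FPKM without overlap (adjusted p = 0.428).

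Regulators of the step from precursor to oligodendrocyte had 8 higher and 26 lower fitted values among 34 tested, with a median of -0.06 and 0 past the threshold, where 55.5% of all tested genes were lower. Without WT replicate 2 the list had 20 of 33 lower and a median of -0.0073. Lingo1, a membrane protein that restrains differentiation, was at 20.1, 20.4 and 20.2 FPKM in the WT group, against 15.3, 16.2 and 17.8 FPKM in the cKO-labelled group, without overlap (log2 fold change -0.29, SE 0.07, adjusted p = 0.218). Ezh2, the histone methyltransferase of the Polycomb repressive complex, averaged 22.9 and 18.3 FPKM (adjusted p = 0.235), and Hes1, a Notch target that holds cells as progenitors, 11.9 and 9.73 FPKM (adjusted p = 0.353). These 3, named for their lowest p, had no overlap. Of the 34 tested, 5 had no overlap with the cKO-labelled libraries lower and 1 with them higher, against 10.2% and 7.07% of all tested genes.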

How the data were processed

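The authors deposited FPKM values, with 1 column for each library (per the file headers), and no value was 0. The submitters' processing notes name Bowtie2 and the build GRCm38 (mm10). The sources used here do not give the counter, annotation, transcript lengths or strand. FPKM carries no fragment totals, so the depth per library is unknown here, no count model was run, and the spread between libraries is the measure of precision. The 11596 genes averaging 1 FPKM or more were put on the log2(FPKM + 1) scale, which understates changes of low genes. The test between groups was limma's (version 3.58.1, R 4.3.3, with lmFit and eBayes, an intensity trend, two-sided), adjusted by Benjamini-Hochberg over all tested genes, at a threshold of 0.05, and the fit was tested on simulated data. The members, lists and alternatives were chosen with earlier results of these data known. Values in every library are given for members with a mean of at least 10 FPKM, the 3 of lowest p in each stage and those without overlap, and for other members added after their values were seen. Of other lineage lists, the 3 genes of lowest p are named. Coordinates and promoters are from RefSeq (GRCm38.p6). Alternatives were another pseudocount, other filters, 2 scalings, no trend, weights per library, a replicate block, fits without each library, a Y-linked covariate, and WT replicate 3 alone. Figures were drawn with matplotlib 3.10.9.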

Additional observations from a re-analysis of the deposited data

How the results depend on the processing

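Of the 28 tested members 11 kept the sign of their log2 fold change in each of the alternatives in which they were tested: Cldn11, Gpr17, Gpr37, Lhfpl3, Mag, Mbp, Mobp, Mog, Nfasc, Pdgfra and Tspan2. No member passed the threshold except Gpr17 without WT replicate 2 and Mbp with the replicate block. Members called were 0 to 1 over the fits without single libraries, and 1 with the replicate block (Mbp, log2 fold change -0.66, adjusted p = 0.0221). The replicate numbers do not pair the samples by the labels, and the correlation of deviations of same-numbered libraries was -0.043, 0.30 and 0.26. Not every library correlated best with its own number. Calls over all genes were 3, and 22 with the replicate block, 129 with library weights, 0 without a filter, 0 with quantile normalization, 0 without an intensity trend, 0 with the Y-linked covariate, 0 against WT replicate 3 alone, and 0 to 10 without single libraries. The median of the committed genes, 0.04, was 0.59 with the Y-linked covariate. The following log2 fold changes had the opposite sign to that given above, and none of them passed the threshold; the cause was not tested. With library weights they were Sox10 0.19, Myrf 0.065, Ugt8a 0.31, Fa2h 0.0055 and Qk 0.0062. With quantile normalization they were Ugt8a 0.0094 and Qk 0.025. With median ratio scaling they were Qk 0.0062. With the Y-linked covariate they were Sox10 1.21, Sox8 -0.42, Cspg4 -0.16, Tcf4 -0.056, Myrf 0.59, Cnp 0.040, Ugt8a 0.42, Fa2h 0.84, Qk 0.16 and Sirt2 -0.087. With WT replicate 3 alone they were Sox10 0.35, Sox8 -0.100, Myrf 0.056, Ugt8a 0.17, Fa2h 0.21 and Qk 0.060. Among fits without single libraries, the sign turned in at least 1 for Olig1 (-0.25 to 0.032), Olig2 (-0.23 to 0.037), Sox10 (-0.39 to 0.32), Nkx2-2 (-0.013 to 0.32), Cspg4 (-0.18 to 0.20), Bcas1 (-0.075 to 1.01), Tcf4 (-0.042 to 0.059), Zfp488 (-0.074 to 0.14), Myrf (-0.44 to 0.11), Ugt8a (-0.24 to 0.29), Fa2h (-0.42 to 0.11), Gal3st1 (-0.023 to 0.28), Enpp2 (-0.24 to 0.0066) and Qk (-0.047 to 0.045). With a filter at 5 FPKM 22 members were tested.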

Other observations

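Beside the 6 members, 5 other listed lineage genes exceeded 2 times the mean of the other WT libraries in WT replicate 2, against 0.552% of all tested genes. They were singled out after their values were seen, and Bmp4 and Sema5a passed the filter only through that library. Bmp4, a growth factor also expressed by committed precursors, had 0.12, 3.42 and 0.28 FPKM in replicates 1 to 3 of WT, and 0.78, 1.62 and 1.47 FPKM in those of cKO, the order of libraries seen for Gpr17 and Bcas1. Id2, an inhibitor of basic helix-loop-helix factors, was at 31.4, 78.2 and 26.4 FPKM (WT) and 30.8, 54.2 and 43.1 FPKM (cKO-labelled). Sema5a, a guidance protein, was at 0.75, 2.05 and 0.66 FPKM in the WT group, against 0.92 to 1.22 FPKM in the cKO-labelled group. The others were Lims2, given above, and Ndrg1, a stress-responsive gene of oligodendrocytes and other cells, at 2.95, 4.93 and 1.94 FPKM in the WT libraries and 1.74 to 2.79 FPKM in the cKO-labelled ones. On the other side stood Gpr37l1, a receptor of astrocytes and precursors, at 165, 76.1 and 171 FPKM (WT) and 222, 118 and 125 FPKM (cKO-labelled), lowest in WT replicate 2 and highest in cKO replicate 1.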
